A study of Mus musculus with 96 samples.

Results

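The TF-AA mutation experiment is a bulk RNA-seq comparison in R1 mouse embryonic stem cells (ESCs), a line derived from a male mouse embryo. Its members are 4 samples of the 96 in the series, and of the 26 RNA-seq samples. They are the 4 libraries of a single count table, 2 labelled WT (genotype WT, treatment control) and 2 labelled TF-AA mutation. All 4 were total RNA of ESCs grown in medium with 15% serum and 1000 U/mL LIF. The labels do not say which residues the TF-AA mutation replaces, how it was made, or whether the mutant cells come from 1 clone, so the mutation and anything else that separates the TF-AA cells from the WT cells cannot be told apart. Nothing in the labels says that the 2 libraries of a group came from separate cultures, so the p-values measure the spread between these libraries, which may be technical. The experiment belongs to a series on RYBP, in which ESCs without Rybp, with less Rybp or with a deletion in RYBP were sequenced as well.

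RYBP is a subunit of variant PRC1, a Polycomb complex built around the E3 ligase RING1 or RNF2 (also called RING1B), which ubiquitylates histone H2A. Which variant PRC1 forms depends on its PCGF subunit. The form with PCGF6, MGA, MAX, E2F6 and L3MBTL2 is known in ESCs for silencing germ cell and meiosis genes, and the form with KDM2B for binding CpG islands of developmental genes. ESCs grown with LIF also hold a small, changing fraction of two-cell-like cells, which express Zscan4, Dux and other genes of the two-cell embryo. The comparison therefore addresses which of these programs differ between WT ESCs and ESCs with the TF-AA mutation.

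The reads counted on genes numbered between 18509543 and 21152439 per library, and 14456 of the 37620 genes in the table passed the filter on low counts. The share of reads not aligned was between 49.3% and 49.5%. Mitochondrial genes took 1.63% and 1.88% of the counts in WT and 2.25% and 2.44% in TF-AA. Log2 levels correlated across genes with r = 0.991 between the WT libraries and 0.993 between the TF-AA libraries, and with 0.967 to 0.969 between groups. The ESC label was in keeping with the markers: Pou5f1, Sox2, Nanog, Zfp42, Esrrb, Klf4, Dppa5a and Tdgf1 were all detected in the 4 libraries, and the lowest value among them was 218 CPM, for Klf4 in WT replicate 2. Before any result it has to be said that the TF-AA libraries stood apart over whole stretches of chromosomes 1, 5 and 14, which are described after the gene groups, and that counts without the genes of these stretches are given for the groups they touch. Chromosome 12 was shifted upwards as a whole and is kept in those counts.

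Rybp itself had 122 and 139 counts per 1e6 reads on genes (CPM, after TMM normalization) in WT and 112 and 118 in TF-AA. Both TF-AA libraries lay below both WT libraries, but the difference was small. The log2 fold change of TF-AA against WT was -0.19 with a standard error (SE) of 0.08, and the adjusted p was 0.0959 by the quasi-likelihood test of edgeR, adjusted after Benjamini and Hochberg as is every adjusted p given here. Without WT replicate 1 the fold change was -0.28 with an adjusted p of 0.00444. Its paralog Yaf2 had 7.02 and 6.08 CPM in WT and 7.45 and 8.22 in TF-AA (log2 fold change 0.26, adjusted p = 0.288). Gene counts do not show the mutated residues, so they do not check the TF-AA label.

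Of the 14456 genes tested, 2085 (14.4%) rose and 2327 (16.1%) fell in TF-AA at an adjusted p under 0.05, together 4412 genes (30.5%). Many of the changes were small: 1909 of the called genes changed by at most 0.5 on the log2 scale. Among changes above 1 on the log2 scale the rises were in the majority, with 925 genes (6.4% of those tested) against 251 (1.74%), and 377 genes rose by more than 2 against 32 that fell by more than 2. Under upper quartile normalization 2847 genes rose and 1717 fell, so the share of calls that were rises was 62.4% in place of 47.3%. Leaving out TF-AA replicate 1 left 2724 calls, and leaving out TF-AA replicate 2 left 2733. Each such fit has an arm of 1 library, which is assumed to vary like the 2 libraries of the other group, and this holds wherever a library is left out. In bulk libraries a lower level of a gene in every cell and fewer cells that express it cannot be told apart, and this holds for all groups below. The shares over all genes, 14.4% higher and 16.1% lower, are those to set beside every list count of this comparison.

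**Figure D1:**
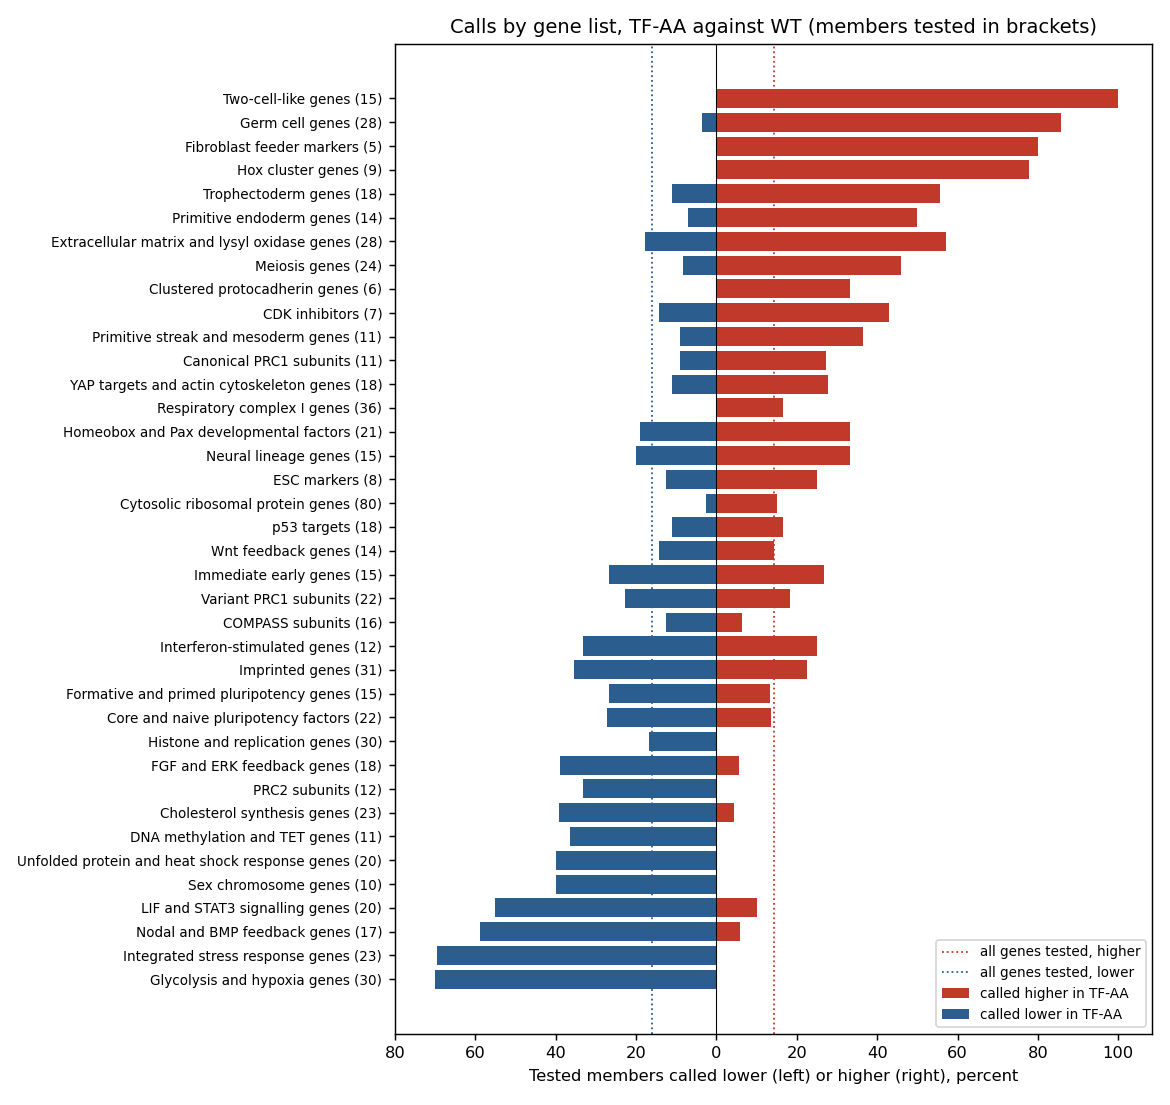
Share of the tested members of each gene list called higher (red, to the right) or lower (blue, to the left) in TF-AA than in WT, in percent, with the number of members tested in brackets. The dotted lines mark the shares over all genes tested, 14.4% higher and 16.1% lower. Two-cell-like and germ cell genes lie at the top with calls to the right, and glycolysis, integrated stress response, Nodal and LIF genes at the bottom with calls to the left.

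The two-cell-like genes showed the largest rises. They are genes switched on when the mouse embryonic genome is first activated, and 15 of the 17 in the table passed the filter and all 15 rose, beside 14.4% of all genes tested. Their summed level was 1.81 and 0.939 CPM in the WT libraries and 113 and 120.5 CPM in the TF-AA libraries. The median log2 fold change was 6.36, or 6.19 when genes without counts in WT were set to a bound. Because all 15 passed the filter through the TF-AA libraries, the count of rises says little more than that the genes were detected in TF-AA and hardly in WT. With a minimum mean of 5 CPM, 5 of them were called.

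Zscan4d, of the Zscan4 family that acts in telomere maintenance of ESCs, had 0.239 and 0 CPM in WT and 16.3 and 16.3 CPM in TF-AA (log2 fold change 7.00, SE 0.35, adjusted p = 2.18e-13). Zscan4c had 0.382 and 0.0988 CPM in WT and 15.1 and 16.0 CPM in TF-AA. For Zscan4e there were 2 counts over both WT libraries and 431 over both TF-AA libraries, a ratio of 228 with a 95% interval of 62.8 to 1892 for counting error only. In each of these genes the groups lay far apart, and the TF-AA libraries were close to each other.

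Dub3, a deubiquitinating enzyme gene of the Usp17l family, had no count in WT and 206 counts in TF-AA, so it was at least 72.8-fold higher, taking 3 counts over the group as the floor. Tdpoz4 was likewise at 0 in WT and had 50 counts in TF-AA (at least 17.7-fold higher). All 6 Zscan4 genes and all 5 Usp17l genes in the table rose, families that were picked after their values were seen. The members of each family are near-identical copies, so reads could be split between them or left uncounted, and single members are uncertain. The family sum can be affected too (0.955 and 0.247 CPM in WT against 63.4 and 66.1 CPM in TF-AA for Zscan4). Dux, the transcription factor that activates this program, did not pass the filter, with 0 and 0 counts in WT and 8 and 2 counts in TF-AA.

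**Figure D2:**
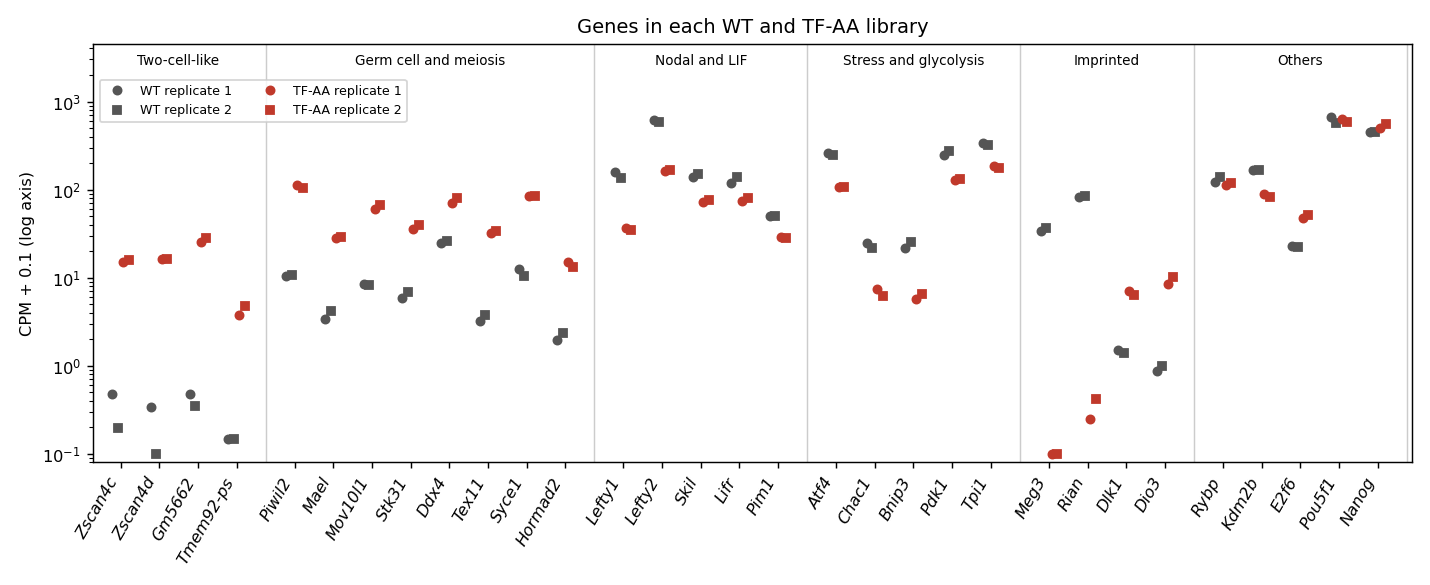
Level of selected genes in each of the 4 libraries, as CPM plus 0.1 on a log axis, with WT in grey and TF-AA in red and replicates 1 and 2 as circles and squares. Two-cell-like, germ cell and meiosis genes lie higher in both TF-AA libraries, Nodal, LIF, stress and glycolysis genes lower, and Meg3 is at 0 in both TF-AA libraries, while Pou5f1 overlaps between the groups.

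Germ cell genes rose as a group. They include the piRNA pathway, in which small RNAs guide PIWI proteins against transposons in the germline. Of 28 tested genes 24 rose and 1 fell, and 22 rose by more than 1 on the log2 scale (background 14.4% and 6.4%). The median log2 fold change was 1.75 against 0.01 over all genes tested, and the summed level went from 248 and 252 CPM to 777 and 794 CPM. Without the gene that lies in the chromosome 5 stretch, 23 of 27 rose. Asz1, Tuba3b and Fkbp6 were near 0 in WT and passed the filter through the TF-AA libraries, so their direction is set by it. Slc25a31 was low in WT too and passed only with the TF-AA libraries, so its direction is largely set by the filter. With a minimum mean of 5 CPM, 17 genes of the list were called.

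Piwil2, a PIWI protein that binds piRNAs, had 10.3 and 10.7 CPM in WT and 114 and 104 CPM in TF-AA (log2 fold change 3.37, SE 0.10, adjusted p = 2.55e-17). Mov10l1, the helicase that starts piRNA processing, had 8.41 and 8.10 CPM in WT and 59.5 and 66.8 CPM in TF-AA. Mael, a piRNA pathway protein of the nuage, went from 3.34 and 4.05 CPM to 28.4 and 29.2 CPM. All 3 were higher in both TF-AA libraries than in either WT library by a wide margin.

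Asz1, a protein of the nuage at mitochondria, had no count in WT and 85 counts in TF-AA, at least 30.0-fold more against the floor of 3 counts over the group. Fkbp6, a cochaperone of the same pathway, rose by 3.49 (adjusted p = 4.25e-07), although it lies in a stretch of chromosome 5 where most genes fell. Ddx4, the germ cell helicase also called Vasa, was already at 24.5 and 26.3 CPM in WT and rose to 70.9 and 79.6 CPM. Tdrd12, a tudor protein of secondary piRNA processing, was the exception and fell from 27.5 and 31.9 CPM to 17.3 and 18.3 CPM (log2 fold change -0.74, adjusted p = 2.76e-05).

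The promoters of these genes are shown because binding sites of E2F6 and of MGA with MAX are known from germ cell genes held silent by the PCGF6 form of variant PRC1. The search covered 2 short motifs on either strand, CACGTG (an E-box, its own reverse complement) and GCGGGAA (an E2F site, TTCCCGC on the other strand). These can share no more than an end base. The promoters are RefSeq sequences of build GRCm38.p6, from 250 bases before to 50 bases after the start of the gene, written 5′ to 3′ along the gene with the motifs in capitals. They belong to Ddx4 (chr13:112652261-112652560, minus strand), Mael (chr1:166238695-166238994, minus strand), Mov10l1 (chr15:88982744-88983043, plus strand), Slc25a31 (chr3:40708621-40708920, plus strand), Taf7l (chrX:134476441-134476740, minus strand) and the meiosis gene Tex12 (chr9:50561219-50561518, minus strand).
Ddx4: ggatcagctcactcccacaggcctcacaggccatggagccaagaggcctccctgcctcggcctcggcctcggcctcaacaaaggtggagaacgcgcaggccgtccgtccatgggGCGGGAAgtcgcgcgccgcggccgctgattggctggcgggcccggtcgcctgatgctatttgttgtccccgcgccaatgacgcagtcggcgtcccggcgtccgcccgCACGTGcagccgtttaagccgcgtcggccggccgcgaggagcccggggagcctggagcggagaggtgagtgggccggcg
Mael: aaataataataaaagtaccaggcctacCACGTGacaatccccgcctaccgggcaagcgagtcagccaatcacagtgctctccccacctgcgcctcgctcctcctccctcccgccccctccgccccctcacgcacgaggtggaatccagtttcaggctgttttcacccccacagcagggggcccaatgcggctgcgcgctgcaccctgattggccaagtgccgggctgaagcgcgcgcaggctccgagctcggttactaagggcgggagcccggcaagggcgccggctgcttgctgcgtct
Mov10l1: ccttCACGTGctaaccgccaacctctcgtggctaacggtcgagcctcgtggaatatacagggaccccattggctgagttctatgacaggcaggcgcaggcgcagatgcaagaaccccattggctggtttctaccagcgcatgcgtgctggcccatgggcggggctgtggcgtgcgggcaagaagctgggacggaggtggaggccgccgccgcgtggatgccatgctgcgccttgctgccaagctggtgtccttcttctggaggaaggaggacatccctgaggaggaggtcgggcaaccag
Slc25a31: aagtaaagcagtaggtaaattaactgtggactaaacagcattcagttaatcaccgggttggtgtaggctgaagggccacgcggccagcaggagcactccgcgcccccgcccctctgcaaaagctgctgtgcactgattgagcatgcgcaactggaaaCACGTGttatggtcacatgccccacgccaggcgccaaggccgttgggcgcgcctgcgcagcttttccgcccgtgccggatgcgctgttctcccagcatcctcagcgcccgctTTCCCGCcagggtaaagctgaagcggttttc
Taf7l: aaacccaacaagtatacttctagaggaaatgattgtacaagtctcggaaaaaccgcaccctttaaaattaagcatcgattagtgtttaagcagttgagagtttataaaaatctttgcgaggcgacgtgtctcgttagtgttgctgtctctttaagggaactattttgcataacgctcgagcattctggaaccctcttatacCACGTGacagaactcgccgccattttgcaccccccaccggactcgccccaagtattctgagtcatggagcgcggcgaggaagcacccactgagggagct
Tex12: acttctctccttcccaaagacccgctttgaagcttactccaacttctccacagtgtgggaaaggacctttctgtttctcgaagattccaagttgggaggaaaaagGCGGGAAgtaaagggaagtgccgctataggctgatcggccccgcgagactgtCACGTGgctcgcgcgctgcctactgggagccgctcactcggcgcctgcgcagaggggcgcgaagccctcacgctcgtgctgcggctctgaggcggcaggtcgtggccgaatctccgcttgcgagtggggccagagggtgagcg

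These 6 genes were picked among germ cell and meiosis genes that rose in TF-AA and hold a motif. Their rise and their motifs are thus set by the choice. Slc25a31, an ADP/ATP carrier of the male germline, went from 0.907 and 0.445 CPM to 4.82 and 6.94 CPM, and Taf7l, a germ cell subunit of TFIID, from 1.15 and 0.741 CPM to 6.76 and 6.51 CPM. Promoters were matched by symbol for 23 of the 28 germ cell genes tested. CACGTG was in 11 of them (47.8%) and GCGGGAA in 6 (26.1%), and 15 held either motif. Over the RefSeq promoters of all 27025 genes in that set the shares were 8.09% and 5.29%, and over the 9683 tested genes with a promoter 12% and 10.2%. Among all genes called up in TF-AA the shares were 12.8% and 8.7%, close to those of all tested genes. All 11 CACGTG promoters of the list belonged to genes that rose, and the 3 matched germ cell genes that did not rise held none. For GCGGGAA the shares were 25% of the matched germ cell genes that rose and 1 of the 3 that did not. Among meiosis genes CACGTG was in 2 of the 9 matched genes that rose and 4 of the 13 that did not, and GCGGGAA in 2 and 7. These numbers are small and were not tested. A match shows only that these letters are in the window.

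Meiosis genes were less uniform. Of 24 tested, 11 rose and 2 fell, beside 14.4% and 16.1% of all genes, with a median log2 fold change of 0.57. Tex12 and Stra8 passed the filter through the TF-AA libraries, so their direction is set by it, and 9 genes of the list were called with a minimum mean of 5 CPM. Among the rises were genes of the synaptonemal complex, the protein axis that holds paired chromosomes together. Syce1, a central element protein, had 12.3 and 10.4 CPM in WT and 85.4 and 83.8 CPM in TF-AA (log2 fold change 2.89, adjusted p = 7.3e-16). Tex12, its partner in the central element, went from 0.0955 and 0 CPM to 0.994 and 2.24 CPM, and Hormad2, which marks unpaired axes, from 1.86 and 2.27 CPM to 15.1 and 13.2 CPM. Stra8, the inducer of meiotic entry, rose by 2.51 but reached only 1.39 and 1.44 CPM.

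The 2 meiosis genes that fell were abundant in WT. Hsf2bp, a meiotic recombination factor, fell from 45.2 and 43.4 CPM to 14.9 and 13.8 CPM. Stag3, the meiotic cohesin subunit, fell from 72.5 and 79.7 CPM to 32.5 and 32.8 CPM and lies in the chromosome 5 stretch. Sycp3, the axis protein, had 3.30 and 3.75 CPM in WT and 4.27 and 3.90 CPM in TF-AA and did not pass the test. Spo11, which makes the meiotic breaks, had no count in any library, and Dmc1, the meiotic recombinase, did not pass the test (log2 fold change -0.36).

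The other large rises included testis genes of the X chromosome. Tex13 had 0.287 and 0.395 CPM in WT and 23.1 and 25.9 CPM in TF-AA (log2 fold change 6.15, SE 0.24, adjusted p = 1.49e-15). Rhox13, a homeobox gene of the reproductive Rhox cluster, went from 0.621 and 0.642 CPM to 21.1 and 17.4 CPM. Scml2, a Polycomb-like protein of the male germline, went from 0.478 and 1.04 CPM to 9.94 and 13.0 CPM.

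None of these X-linked genes reached 2 CPM in a WT library. Of the 32 Rhox genes in the table, 18 had no count in any library, 4 passed the filter and all 4 rose, and of 6 tested genes numbered Xlr3 or Xlr4 5 rose. Most of these genes passed the filter through the TF-AA libraries, so the counts of rises are largely set by it. These families were also picked after their values were seen, and their copies are similar enough for reads to be split between them. The whole X chromosome showed no shift, with a median log2 fold change of 0.01 over 527 genes. Outside these families, Col4a4, a basement membrane collagen, rose by 4.74 and Cacna1s, a muscle calcium channel, by 4.12, both from under 0.5 CPM.

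Hox genes, which set position along the body axis and are classic Polycomb targets, remained low. Of 38 in the table, 9 passed the filter, 7 of them rose and none fell, with a median log2 fold change of 1.81. Hoxd1, Hoxa10, Hoxc4 and Hoxc10 were near 0 in WT and passed the filter through the TF-AA libraries, so the count of rises is partly set by the filter. Hoxc4 had 0.573 and 0.445 CPM in WT and 3.78 and 3.31 CPM in TF-AA (adjusted p = 2.42e-06), and Hoxa10 had 0.382 and 0.247 CPM in WT and 1.94 and 2.35 CPM in TF-AA. No Hox gene reached a mean of 5 CPM, so none was tested under that filter. Hoxc10 lost its call without WT replicate 1 (adjusted p = 0.105) and Hoxd1 without WT replicate 2 (adjusted p = 0.086).

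Of 21 other homeobox and Pax factors tested 7 rose and 4 fell, beside 14.4% and 16.1% of all genes, so the falls were near that share. Fewer of them were called without TF-AA replicate 1. Msx2, a homeobox gene of BMP signalling, rose by 2.61 from 0.143 and 0.346 CPM to 1.59 and 1.44 CPM. It passed the filter through the TF-AA libraries, as did Pax2, so the count of rises is partly set by it. En2, a midbrain factor, went from 3.77 and 4.89 CPM to 12.6 and 13.2 CPM. Pax6, the eye and forebrain factor, fell from 2.34 and 1.88 CPM to 0.447 and 0 CPM, a call that DESeq2 did not make (adjusted p = 0.25).

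Of the lineage lists, trophectoderm and primitive endoderm held the most rises. For trophectoderm, the outer layer of the blastocyst, 10 of 18 tested genes rose and 2 fell, and 7 were called with a minimum mean of 5 CPM. Krt7, a keratin of trophoblast, had 1 count over both WT libraries and 101 over both TF-AA libraries (ratio 107, 95% interval 18.8 to 4269 for counting error only) and so passed the filter through TF-AA, while the defining factor Cdx2 had at most 4 counts in a library and Elf5 at most 8. For primitive endoderm, the layer that gives the yolk sac, 7 of 14 rose and 1 fell, among the rises Srgn, a proteoglycan with no count in WT that passed the filter through TF-AA. Sparc, a matrix protein, rose from 93.7 and 82.5 CPM to 161 and 163 CPM, but Gata6 and Sox17, which define this lineage, had at most 6 counts in a library and were not tested.

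For primitive streak and mesoderm 4 of 11 rose and 1 fell, a total of 5 calls that was 2 without TF-AA replicate 1 and 3 without TF-AA replicate 2. Evx1, a posterior streak factor, rose from 1.62 and 1.24 CPM to 7.90 and 6.67 CPM, while T (Brachyury) had at most 10 counts in a library. For neural genes 5 of 15 rose and 3 fell. Nefm, a neurofilament, rose from 2.63 and 3.31 CPM to 13.7 and 12.4 CPM, and the related filament Ina fell from 43.8 and 48.6 CPM to 17.7 and 18.9 CPM.

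Extracellular matrix genes rose in 16 of 28 and fell in 5 of 28 cases, with a median log2 fold change of 0.56. Col1a2, Col6a1 and Loxl4 were near 0 in WT and passed the filter through the TF-AA libraries, and 14 genes of the list were called with a minimum mean of 5 CPM. Col1a2, a chain of type I collagen, had 0.239 and 0.198 CPM in WT and 2.73 and 3.52 CPM in TF-AA (log2 fold change 3.80, adjusted p = 5.88e-07). Col6a2, of the microfibrillar collagen VI, rose by 1.92, and P4ha2, a collagen prolyl hydroxylase, by 1.31. Col18a1, the collagen of basement membranes that gives endostatin, moved the other way, from 567 and 506 CPM to 261 and 247 CPM.

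Markers of fibroblasts, which can be present as feeder cells in ESC culture, moved with these genes, and their part in the result was not tested. Of 14 such markers 5 passed the filter and 4 rose, beside 14.4% of all genes. Their summed level was 23.0 and 22.2 CPM in WT and 44.5 and 43.4 CPM in TF-AA. Col1a2 is on both lists and passed the filter through the TF-AA libraries, and 2 markers were called with a minimum mean of 5 CPM. Fbn1, a microfibril protein, went from 5.64 and 4.69 CPM to 13.2 and 13.1 CPM and Thy1 from 10.3 and 9.39 CPM to 17.8 and 17.4 CPM. The defining fibroblast genes Col3a1, Lum, Dcn and Fap had no count in any of the 4 libraries, and Postn had 1 count in all.

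Nodal and BMP feedback genes fell. Nodal is a TGF-beta ligand that acts through SMAD2 and SMAD3 in ESCs, and it turns on its own inhibitors. Of 17 tested genes of these pathways 10 fell and 1 rose, with a median log2 fold change of -0.35. Lefty2, a secreted Nodal inhibitor, had 616 and 586 CPM in WT and 161 and 165 CPM in TF-AA (log2 fold change -1.88, SE 0.08, adjusted p = 4.88e-15).

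Lefty1, the second such inhibitor, had 157 and 135 CPM in WT and 36.3 and 35.0 CPM in TF-AA. Skil, a SMAD corepressor and feedback target, went from 139.6 and 149.9 CPM to 72.5 and 76.1 CPM. The ligand Nodal fell by 0.30 on the log2 scale, far less than its inhibitors, and the coreceptor Tdgf1 did not pass the test (847 and 844 CPM in TF-AA against 921 and 931 CPM in WT). Smad7, an inhibitor shared by both branches, had 132 CPM in both WT libraries and 134 and 123 CPM in TF-AA. Of the BMP-induced Id genes, Id1 fell by 0.86 and Id3 rose by 0.86, each with groups that lay apart.

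LIF and STAT3 signalling genes also fell more often than they rose. LIF binds a receptor of LIFR and IL6ST (gp130), which activates JAK kinases and STAT3. Of 20 tested genes 11 fell and 2 rose, with a median log2 fold change of -0.31, and 10 of 19 fell outside the chromosome stretches. Lifr had 120.0 and 138 CPM in WT and 73.4 and 81.2 CPM in TF-AA (log2 fold change -0.74, adjusted p = 5.87e-07), and Il6st fell by 0.37.

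Jak2, a kinase of the receptor, fell from 5.49 and 5.78 CPM to 2.63 and 3.63 CPM, a call that was lost without TF-AA replicate 1 (adjusted p = 0.112). Among the STAT3 targets, the kinase gene Pim1 fell from 50.0 and 49.7 CPM to 28.8 and 28.3 CPM, and the inhibitor Socs2 from 142 and 156 CPM to 93.5 and 93.2 CPM. Socs3 fell by only 0.23. Stat3 itself had 164 and 160.1 CPM in WT and 168 and 176 CPM in TF-AA and did not pass the test (adjusted p = 0.425). The target Tcfcp2l1, a factor of naive pluripotency, rose from 1150.5 and 1227 CPM to 1466 and 1476 CPM.

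FGF and ERK feedback genes damp the signal that drives exit from pluripotency. They fell in 7 of 18 cases and rose in 1, beside 16.1% and 14.4% of all genes. Dusp6, an ERK phosphatase, fell by 0.66, Spry1 by 0.65 and Spry4 by 0.59. Egr1, an early target of ERK, had 170.2 and 152 CPM in WT and 172 and 165 CPM in TF-AA, and Fos, another early target, rose by 1.18.

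Most pluripotency factors moved little beside these changes. The shares of all genes to compare with are 14.4% higher and 16.1% lower. Of 22 core and naive factors 3 rose and 6 fell, counts that were 4 calls in all without TF-AA replicate 1 and 3 without TF-AA replicate 2. Pou5f1 had 664 and 572 CPM in WT and 626 and 591 CPM in TF-AA (log2 fold change -0.02, adjusted p = 0.865), and its groups overlapped. Sox2 had 697 and 692 CPM in WT and 613 and 639 CPM in TF-AA (log2 fold change -0.15, adjusted p = 0.116, and 0.0453 without WT replicate 2). Nanog rose by 0.24 (adjusted p = 0.0179), but the call was lost without TF-AA replicate 1 (adjusted p = 0.0647) and without TF-AA replicate 2 (adjusted p = 0.433).

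Esrrb, a naive factor, differed by 0.03 on the log2 scale and did not pass the test. Falls were seen for Nr0b1, a nuclear receptor repressor, from 136 and 124 CPM to 70.5 and 71.9 CPM, and for Dppa5a from 793 and 712 CPM to 533 and 508 CPM. The largest fall of the core and naive list was that of Dppa3, by 1.00 (adjusted p = 0.0468). DESeq2 did not make this call (adjusted p = 0.177). Of 15 formative and primed genes 2 rose and 4 fell, beside 14.4% and 16.1% of all genes. One of the rises, Nkx1-2, had 3 counts in WT and 68 in TF-AA. It passed the filter through the TF-AA libraries, so its direction is set by it. Otx2, which defines the formative state, had 66.6 and 61.4 CPM in WT and 58.6 and 60.8 CPM in TF-AA and did not pass the test.

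Integrated stress response genes fell as a group. They are targets of ATF4, the factor made when amino acids are short or protein folding fails. Of 23 tested genes 16 fell and none rose, and 21 of 23 were lower in both TF-AA libraries than in either WT library, beside 31.4% of all genes. The median log2 fold change was -0.46. None of the 23 genes lies in the chromosome stretches.

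Atf4 itself had 262 and 248 CPM in WT and 106 and 107 CPM in TF-AA (log2 fold change -1.26, SE 0.08, adjusted p = 1.47e-11). Chac1, a glutathione-degrading enzyme and ATF4 target, went from 24.6 and 21.5 CPM to 7.26 and 6.08 CPM. Stc2, a secreted glycoprotein, went from 33.3 and 38.2 CPM to 17.0 and 13.7 CPM. The amino acid transporter gene Slc7a5 fell by 0.70 and the asparagine synthetase gene Asns by 0.42. Vldlr, a lipoprotein receptor, fell by 2.33 from 4.25 and 4.10 CPM. Ddit3 (CHOP), the factor of the terminal stress response, was at 4.97 and 5.14 CPM in WT and at 3.78 and 4.91 CPM in TF-AA and did not pass the test.

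Unfolded protein and heat shock genes had 8 falls and no rise among 20, or 6 falls among 18 outside the stretches. The mitochondrial chaperone Hspd1 fell by 0.51, while the endoplasmic reticulum chaperone Hspa5 (BiP) had 671 and 701 CPM in WT and 693 and 700.2 CPM in TF-AA.

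Glycolysis and hypoxia genes fell in 21 of 30 cases and rose in none, with a median log2 fold change of -0.37, and none of them lies in the stretches. The largest falls were in targets of the hypoxia factor HIF1. Bnip3, a mitophagy receptor, had 21.9 and 25.5 CPM in WT and 5.62 and 6.40 CPM in TF-AA (log2 fold change -1.98, adjusted p = 2.74e-10). Pdk1, the kinase that keeps pyruvate out of mitochondria, went from 249.9 and 271 CPM to 128 and 132 CPM, and Egln3, an oxygen-sensing prolyl hydroxylase, from 38.1 and 35.8 CPM to 17.2 and 14.0 CPM.

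Enzymes of the glycolytic chain changed less. Tpi1, the isomerase of triose phosphates, fell by 0.85, lactate dehydrogenase Ldha by 0.47 and Gapdh by 0.21, and Pkm2 (pyruvate kinase) had 3643 and 3429 CPM in WT and 3550.1 and 3308 CPM in TF-AA and did not pass the test. Cholesterol synthesis genes had 9 falls and 1 rise among 23, a total of 10 calls that was 5 without either TF-AA replicate.

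Imprinted genes, expressed from the maternal or the paternal copy alone, held the largest falls of the whole comparison. Of 31 tested genes 11 fell and 7 rose. The 3 neighbouring non-coding RNAs of the Dlk1-Dio3 region on chromosome 12, which are expressed from the maternal copy, were nearly absent in TF-AA. Meg3 had 33.7 and 36.3 CPM in WT and no count in either TF-AA library, so that with 1441 counts in WT it was at least 453-fold lower. Rian had 81.4 and 85.6 CPM in WT and 0.149 and 0.320 CPM in TF-AA (log2 fold change -8.46, SE 0.20, adjusted p = 1.04e-19). Mirg had 154 counts in WT and none in TF-AA, which makes it at least 48.4-fold lower.

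The genes of this region that are expressed from the paternal copy moved the other way or were low. Dlk1, a Notch ligand homologue, had 30 and 26 counts in WT and 142 and 117 in TF-AA (log2 fold change 2.29, adjusted p = 1.66e-07). Dio3, a thyroid hormone deiodinase that is not on the list and was picked after its values were seen, went from 16 and 18 counts to 168 and 188. Rtl1 fell from 1.05 and 0.790 CPM to 0 and 0.213 CPM, a call that was lost without TF-AA replicate 1 (adjusted p = 0.104). The strand setting of the counting is not given in the sources used here, and an antisense transcript of the maternal copy overlaps Rtl1, so these cannot be told apart.

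In mm9, the build of the files, Dlk1 lies at chr12:110691033-110701546, Meg3 at chr12:110779211-110809936, Rian at chr12:110842155-110899919 and Dio3 at chr12:111517278-111519307, all on the plus strand. Chromosome 12 as a whole, this region included, had a median log2 fold change of 0.19 over 527 genes. Other imprinted genes on other chromosomes changed too: Grb10, a growth factor receptor adaptor, fell from 481 and 495 CPM to 246 and 253 CPM, Sfmbt2 fell by 1.52 and Zdbf2 by 1.19. Igf2r, the IGF2 clearance receptor, rose by 0.53. Snrpn fell by 0.46, and Peg10 and Mest did not pass the test.

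Genes of DNA methylation had 4 falls and no rise among 11, and 2 calls without TF-AA replicate 1. Dnmt3l, the cofactor of the de novo methyltransferases, had 180.2 and 170.4 CPM in WT and 74.6 and 63.4 CPM in TF-AA (log2 fold change -1.34, adjusted p = 3.32e-11). Dnmt3a fell by 0.57, while Dnmt3b (log2 fold change -0.05), Dnmt1 (-0.14) and Tet1 (0.15) did not pass the test.

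Of 22 variant PRC1 genes, which make up the complex of RYBP, 4 rose and 5 fell, shares near the 14.4% and 16.1% of all genes. E2f6, the DNA-binding subunit of the PCGF6 form, had 22.7 and 22.4 CPM in WT and 47.1 and 51.0 CPM in TF-AA (log2 fold change 1.12, SE 0.10, adjusted p = 8.36e-09). Bcor, of the PCGF1 form, rose from 86.8 and 84.9 CPM to 149 and 137 CPM. Kdm2b, the CpG island binder of that form, fell from 167 CPM in both WT libraries to 89.1 and 81.8 CPM.

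Kdm2b and Auts2, another gene of the list that fell, lie in the chromosome 5 stretch, so 3 of 20 variant PRC1 genes fell outside the stretches. Rnf2, the main E3 ligase in ESCs, had 193 and 213 CPM in WT and 189 and 211 CPM in TF-AA, and Pcgf6 and Mga did not pass the test either. Ring1 rose by 0.49 (adjusted p = 0.00572), a call that was lost without TF-AA replicate 2 (adjusted p = 0.12).

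Of 11 canonical PRC1 genes 3 rose and 1 fell, 2 calls in all without TF-AA replicate 1 and 8 without WT replicate 2. Cbx8, a chromodomain subunit that reads H3K27me3, rose by 1.75 from 0.812 and 0.494 CPM to 1.89 and 2.56 CPM. For this list, PRC2 and COMPASS the shares of all genes to compare with are 14.4% higher and 16.1% lower. Of 12 PRC2 genes 4 fell and none rose, 2 calls without TF-AA replicate 1 and 1 without TF-AA replicate 2, and the methyltransferase Ezh2 (log2 fold change 0.09) and its partner Suz12 (-0.12) did not pass the test. Of 16 genes of the COMPASS complexes, which methylate H3K4, 1 rose and 2 fell, 6 calls without WT replicate 1 and 5 without WT replicate 2. Wdr5, their shared scaffold, had 313 and 301 CPM in WT and 338 and 329 CPM in TF-AA (adjusted p = 0.242, and 0.0444 with upper quartile normalization). Rbbp5, a core subunit, rose by 0.45, and the H3K4 methyltransferase gene Mll3 fell by 0.69. The other fall, of the methyltransferase gene Setd1b by 0.38, lies in the chromosome 5 stretch and lost its call without TF-AA replicate 2 (adjusted p = 0.108).

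For the remaining lists the shares of all genes to compare with are 14.4% higher and 16.1% lower. Of the CDK inhibitors, Cdkn2a, a Polycomb target that gives p16 and p19ARF, rose from 5.11 and 5.04 CPM to 16.1 and 13.9 CPM, and Cdkn1b (p27) fell by 0.70. Of 18 p53 targets 3 rose and 2 fell, 8 calls without WT replicate 1 and 3 without TF-AA replicate 2. Cdkn1a (p21) was among those that did not pass the test, with 24.7 and 23.3 CPM in WT and 20.3 and 21.9 CPM in TF-AA.

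Of 80 cytosolic ribosomal protein genes 12 rose and 2 fell, but the number of calls was 63 without WT replicate 1 and 5 without either TF-AA replicate, and outside the stretches 10 of 75 rose and none fell. For respiratory complex I, 6 of 36 rose, and the number of calls was 16 without WT replicate 1, 3 without WT replicate 2, 2 without TF-AA replicate 1 and 1 without TF-AA replicate 2. Of 30 histone and replication genes 5 fell, with 2 calls without TF-AA replicate 1 and 3 without TF-AA replicate 2, and the proliferation marker Mki67 did not pass the test.

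Interferon-stimulated genes had 3 rises and 4 falls among 12, and the membrane protein gene Ifitm1 fell by 1.20 on the log2 scale to 43.1 and 46.2 CPM. Wnt feedback genes had 2 rises and 2 falls among 14, and 2 calls with DESeq2 or a minimum mean of 5 CPM. YAP targets and actin genes had 5 rises and 2 falls among 18, with 4 calls without TF-AA replicate 2. Immediate early genes had 4 rises and 4 falls among 15, likewise with 4 calls without TF-AA replicate 2, and clustered protocadherins had 2 rises among 6, with 1 call without TF-AA replicate 2.

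The Y chromosome, which R1 cells carry, was lower in TF-AA. All 4 tested Y genes fell, with a median log2 fold change of -2.60. Ddx3y, an RNA helicase, had 16.9 and 19.9 CPM in WT and 2.04 and 2.78 CPM in TF-AA (log2 fold change -2.94, adjusted p = 1.75e-11), and Eif2s3y, a translation factor subunit, had 12.8 and 17.1 CPM in WT and 7.11 and 7.37 CPM in TF-AA. In the R1 controls of the knockdown experiment (shEV), which lack the mutation and were normalized apart, Ddx3y was at 0.398 CPM and Uty at 0.298 CPM. Eif2s3y was at 16.2 CPM in shEV, so not all Y genes were low there. The X-linked partners Ddx3x and Eif2s3x did not pass the test, and Xist was at 2.34 and 1.98 CPM in WT and 2.24 and 2.99 CPM in TF-AA.

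The large falls outside these groups included Klhl13, a substrate adaptor of a CUL3 ubiquitin ligase, which went from 142 and 165 CPM to 32.5 and 33.7 CPM (log2 fold change -2.22, adjusted p = 6.42e-15). Pltp, a phospholipid transfer protein, went from 62.2 and 49.4 CPM to 13.2 and 11.4 CPM. Enpp3, an ectonucleotidase, went from 48.4 and 48.9 CPM to 12.4 and 13.2 CPM. Rcan2, an inhibitor of calcineurin, fell by 2.13, and Vax2, an eye homeobox factor, and Ankrd34a fell by more than 3 from under 10 CPM.

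Fold changes were then set out by chromosome, since genes of a region can shift together. On chromosome 5, from 110 to 155 Mb, 281 of 472 tested genes fell and 18 rose, with a median log2 fold change of -0.42, while the rest of the chromosome had a median of 0.02. On chromosome 1, from 40 to 55 Mb, 33 of 43 genes fell and 3 rose (median -0.56, against 0.08 for the rest). On chromosome 14, from 0 to 45 Mb, 109 of 160 genes rose and 4 fell (median 0.59, against 0.08 for the rest). These 3 stretches were picked after the values were seen, so they carry no test. Chromosome 12 as a whole had 173 rises (32.8% of its genes, beside 14.4% of all genes) and 33 falls, with a median log2 fold change of 0.19 against 0.20 for the whole of chromosome 14.

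Both TF-AA libraries showed them alike, with median deviations from the WT mean of -0.36 and -0.42 on the chromosome 5 stretch, -0.62 and -0.49 on the chromosome 1 stretch, and 0.48 and 0.54 on the chromosome 14 stretch. The same genes had median log2 fold changes between -0.11 and 0.09 in the Rybp-/-, phase disruption and knockdown experiments of the series, each against its own control. Outside the stretches 13781 genes were tested, of which 1955 rose and 2009 fell. Among the lists with a member in a stretch whose count is not given elsewhere, outside the stretches 11 of 22 meiosis genes rose and 1 fell, 1 of 16 Nodal and BMP genes rose and 10 fell, and 3 of 21 core and naive factors rose and 6 fell. Likewise 4 of 17 YAP and actin genes rose and 2 fell, 1 of 22 cholesterol genes rose and 9 fell, 3 of 10 interferon-stimulated genes rose and 3 fell, and 4 of 29 replication genes fell. The cause of these shifts was not tested.

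**Figure D3:**
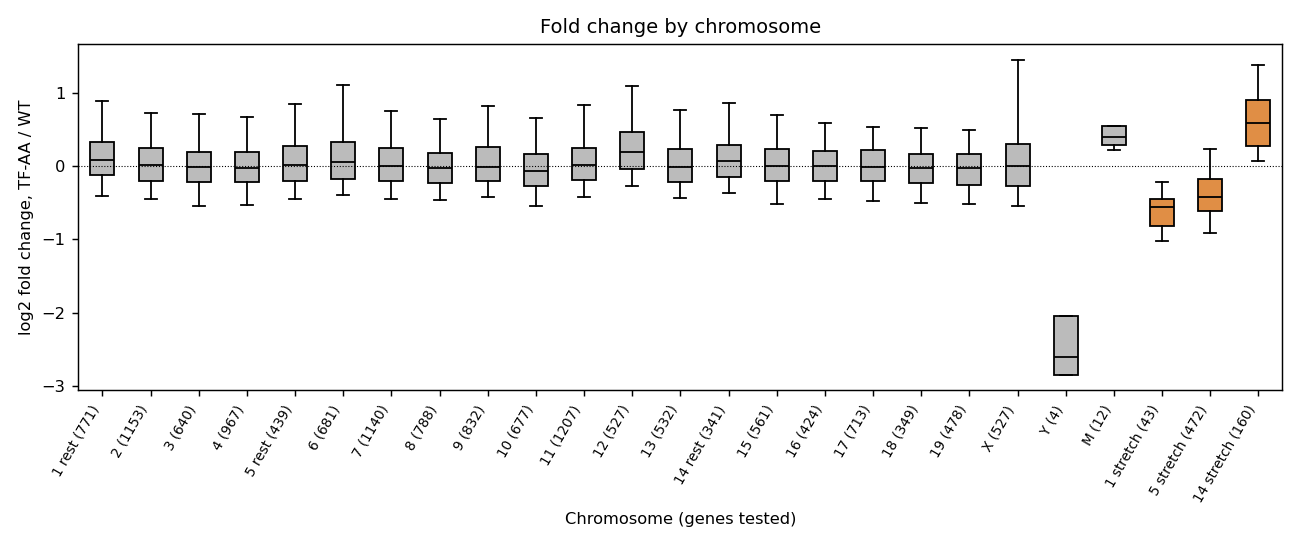
Log2 fold change of TF-AA against WT for the genes tested on each chromosome, with the number of genes in brackets. Boxes span the quartiles with the median as a line, whiskers reach from the 10th to the 90th percentile, and the 3 stretches of chromosomes 1, 5 and 14 are drawn apart in orange, with medians of -0.56, -0.42 and 0.59, while most other chromosomes lie near 0.

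To see what else the changed genes share, their start sites were set beside peaks of the series, which were measured in ESCs without the TF-AA mutation. RING1B peaks came from shEV cells of the R1 line, and H3K4me3, H3K27ac and WDR5 peaks from Rybp+/+ cells. The RING1B list reached down to a −log10 q-value of 1.04, and the others to 1.34 (H3K4me3), 1.32 (H3K27ac) and 1.31 (WDR5), so the thresholds differ. Of 14438 tested genes with a start site, 60.4% had a RING1B peak within 2.5 kb, against 64.1% of the genes that rose and 70.2% of those that fell. For H3K27ac, a mark of active promoters and enhancers, the shares were 78% for all genes, 56.3% for the genes that rose and 90.8% for those that fell.

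Among genes that rose by more than 1 on the log2 scale H3K27ac was at 24.6% of start sites and WDR5 at 31.1%, while RING1B was at 65.4%. WDR5 peaks lay at 69.1% of all genes, 52.9% of those that rose and 80% of those that fell. H3K4me3 peaks lay at 91.6% of all genes, so this mark separated the sets less (87.9% and 96.5%). With peaks of q under 0.0001, RING1B was at 52.1% of the genes that rose and 45.4% of those that fell, so the order of these 2 sets turned with the threshold. The shares describe the sets and were not tested.

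The gene groups differed in these marks. Of 28 germ cell genes 24 had a RING1B peak, 26 an H3K4me3 peak and 9 an H3K27ac peak. A WDR5 peak lay at 14 of the 28 (50%), beside 69.1% of all genes. Piwil2, Mael, Mov10l1 and Ddx4 each had RING1B, H3K4me3 and WDR5 peaks and no H3K27ac peak. All 9 tested Hox genes and all 21 other homeobox and Pax factors had a RING1B peak. None of the 15 two-cell-like genes had a peak of any of the 4 kinds, and whether peaks could be called at these near-identical copies was not tested. Lefty1 and Lefty2 had RING1B and H3K4me3 peaks and no WDR5 peak, and Atf4 had H3K4me3 and H3K27ac peaks and no RING1B peak.

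**Figure D4:**
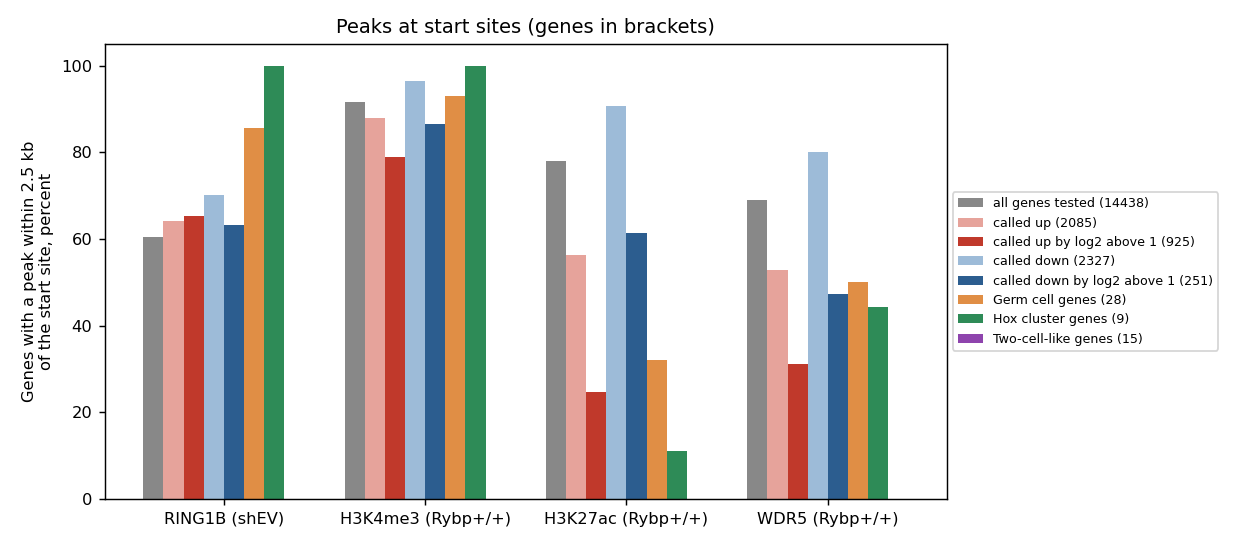
Share of genes with a peak within 2.5 kb of the start site, in percent, for RING1B in shEV cells and H3K4me3, H3K27ac and WDR5 in Rybp+/+ cells, with the number of genes of each set in brackets. RING1B lies at 64.1% of the genes that rose and 70.2% of those that fell, H3K27ac at 56.3% and 90.8%, and the two-cell-like genes have no bar because none has a peak in these lists.

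The TF-AA effect was last set against other perturbations of RYBP in the series. They are Rybp-/- ESCs of the R7.15 line, which received 5 µM 4-OHT for 4 days, against Rybp+/+ cells, for which the labels give no 4-OHT, RYBP phase disruption (a 21aa deletion of RYBP) against WT.RYBP in R7.15 cells given 4-OHT, and shRybp against shEV in R1 cells. Each has 2 libraries per group and its own control, and no sample is shared with the TF-AA table. Cell line and experiment differ together for the R7.15 sets, so these cannot be told apart. The difference between effects was tested with an interaction term for each gene, and edgeR called 3525 genes (20.5%) against Rybp-/-, 3421 (22%) against phase disruption and 5994 (36.2%) against the knockdown.

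Rybp fell by 2.15 on the log2 scale in Rybp-/- and by 1.25 in the knockdown, and the TF-AA effect was higher than these by 1.95 (SE 0.09, adjusted p = 4.31e-11) and 1.09 (adjusted p = 8.44e-08). Of the 2023 genes that rose in TF-AA and were tested in both experiments, 50.7% also rose in Rybp-/-, beside 23.7% of all such genes, and they were 30.4% of the genes that rose in Rybp-/-. Of the 2316 genes that fell, 53.5% also fell in Rybp-/-, beside 26.1% of all, and they were 33.3% of its falls. For phase disruption the shares were 30.8% (background 15.2%) and 33.8% (17.6%), and for the knockdown 45.5% (26.4%) and 43.6% (29.8%).

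Two-cell-like genes rose in every one of these experiments, with all 16 tested members called up. Over all genes 22.8% rose in Rybp-/-, 16.1% in phase disruption and 26.8% in the knockdown. Members near 0 in Rybp+/+, such as Dub2a and Tdpoz4 (0.00636 CPM each), passed the filter through Rybp-/-, so their direction there is set by it. The median log2 fold change was 7.27 in Rybp-/-, 3.27 in phase disruption and 2.18 in the knockdown. The controls differed in their own level: Zscan4d was at 0.0756 CPM in Rybp+/+, 15.3 CPM in WT.RYBP and 15.2 CPM in shEV. The TF-AA effect on Zscan4d did not differ in the test from that of Rybp-/- (difference -0.43, SE 0.83, adjusted p = 0.776) and was larger than that of phase disruption by 4.05 (adjusted p = 3.92e-07). For Zscan4c the TF-AA effect was lower than that of Rybp-/- by 2.20 (adjusted p = 0.0328), and over the list it was lower for 2 and higher for 1 of 16 genes. Against phase disruption the TF-AA effect was higher for 12 of 16 genes, against the knockdown for 13 of 16, and lower for none in either.

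Of the germ cell genes, 21 of 28 rose in Rybp-/-, 20 of 27 in phase disruption and 17 of 30 in the knockdown, beside 22.8%, 16.1% and 26.8% of all genes. The TF-AA effect was higher for 14 of 30 genes against Rybp-/-, 16 of 29 against phase disruption and 18 of 30 against the knockdown, and lower for 1 gene each time. Over all genes the shares with a higher TF-AA effect were 9.19%, 11.2% and 20.3%, and those with a lower effect 11.3%, 10.9% and 15.9%. Piwil2 rose by 1.96 in Rybp-/-, and the TF-AA effect was larger by 1.40 (SE 0.12, adjusted p = 1.51e-07). Ddx4 rose by 1.54 in Rybp-/-, and the 2 effects differed by 0.02 (adjusted p = 0.947). Syce1 rose by 2.04 in Rybp-/- and by only 0.36 in the knockdown.

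Signalling and stress genes were set side by side in the same way. Lefty2 rose by 0.18 in Rybp-/- and by 1.58 in the knockdown, and the TF-AA effect was lower by 2.07 (SE 0.08, adjusted p = 8.08e-13) and 3.43 (adjusted p = 1.62e-15). Over the Nodal and BMP list, the TF-AA effect was lower for 10 of 17 genes against Rybp-/-, 8 of 17 against phase disruption and 10 of 17 against the knockdown, and higher for 1 gene against the knockdown and none against the others. Atf4 changed by 0.01, 0.15 and 0.16 in Rybp-/-, phase disruption and the knockdown, and the TF-AA effect was lower by 1.28 (adjusted p = 1.27e-09) than that of Rybp-/-.

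Over the integrated stress response list the TF-AA effect was lower for 17 of 23 genes and higher for none against Rybp-/-, lower for 16 and higher for 2 against phase disruption, and lower for 8 and higher for 6 against the knockdown. In the knockdown 14 of the 23 genes fell and 5 rose, beside 26% and 26.8% of all genes tested there, with a median log2 fold change of -0.47, and Chac1 fell by 1.63. For LIF and STAT3 genes the TF-AA effect was lower for 12 of 20 genes and higher for 1 against Rybp-/-, lower for 4 and higher for 6 against phase disruption, and lower for 7 and higher for 4 against the knockdown. Of 30 glycolysis and hypoxia genes 25 fell and 1 rose in Rybp-/-, 9 fell and 3 rose in phase disruption, and 18 fell and 5 rose in the knockdown, beside 22.7%, 17% and 26% of all genes that fell there. The TF-AA effect was lower for 10 and higher for 2 of them against Rybp-/-, lower for 13 and higher for none against phase disruption, and lower for 9 and higher for 7 against the knockdown. Pdk1 fell by 0.74 in Rybp-/- and by 0.70 in the knockdown.

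Meg3 was at 80.0 CPM in Rybp+/+ and 65.1 CPM in Rybp-/-, and at 112 and 92.9 CPM in WT.RYBP and phase disruption, so its absence was not seen there. In the R1 cells of the knockdown experiment Meg3 did not pass the filter, and Rian was at 0.321 CPM in shEV and 0.915 CPM in shRybp. The level of Rian was thus low in these R1 control cells without the TF-AA mutation, though the tables were normalized apart and no test was made across them. Kdm2b fell in every experiment, by 0.60 in Rybp-/-, 0.68 in phase disruption and 0.70 in the knockdown, and E2f6 rose by 0.64, 0.41 and 0.73. Bcor rose by 0.42, 0.48 and 0.45. Klhl13, which fell in TF-AA, rose by 0.47 in Rybp-/- (difference -2.70, adjusted p = 5.64e-13).

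**Figure D5:**
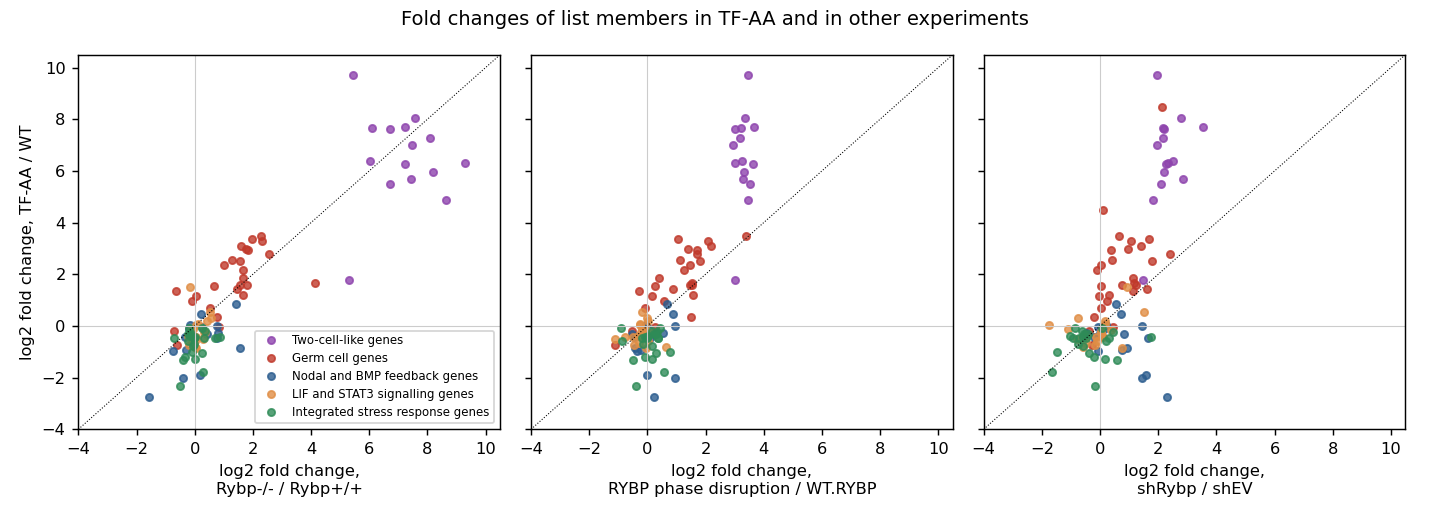
Log2 fold change of list members in TF-AA (vertical axis) against that in Rybp-/-, RYBP phase disruption and shRybp (horizontal axes), each against its own control, with the dotted line marking equal values. Two-cell-like genes lie on both sides of the line for Rybp-/- and nearly all above it for the other experiments, most germ cell genes lie above it, and most Nodal genes and all stress genes lie below 0 in TF-AA.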

How the data were processed

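Total RNA of 2 WT and 2 TF-AA libraries was sequenced by the study. The authors trimmed the reads (Trim Galore), aligned them to mm9 (STAR) and counted them per gene (HTSeq), and deposited raw counts per gene. The strand setting is not given in the sources used here. The TF-AA table was read on its own, and rows of HTSeq summary counts (no feature, ambiguous, not unique, not aligned) were left out of the library sizes. Gene IDs were named from the series' mm9 annotation, which gave 37205 of 37620 IDs a symbol.

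Genes were filtered by edgeR 4.0.16 (filterByExpr), normalized by TMM and tested with the quasi-likelihood test in R 4.3.3 (limma 3.58.1), with Benjamini-Hochberg adjustment over all genes tested and a threshold of 0.05. The SE is the log2 fold change divided by the root of F. The common biological coefficient of variation was 6.69%. On simulated counts the fit was tested for recovery of known changes. Differences of effects between experiments were tested as an interaction on the joined raw counts of both tables. Peak lists were deposited by the authors with a fold enrichment ratio and a −log10 q-value per peak (Bowtie2, mm9, MACS2 against input, with replicates merged for H3K4me3, H3K27ac and WDR5, and 1 RING1B library). A start site within 2.5 kb of a peak counted as marked. Python 3.11.15, pandas 2.3.3, scipy 1.17.1 and matplotlib 3.10.9 were used for the rest. Ratios with few counts carry exact 95% intervals, and these and the floor of 3 counts cover counting error only, since reads without molecular identifiers are not independent molecules.

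The rule for named genes took Rybp, the 12 largest rises and 12 largest falls with a mean of at least 5 CPM in the higher group, up to 4 called members of each list, and Yaf2, Ring1, Rnf2, Wdr5, Stat3, Pou5f1, Sox2 and Nanog. The members and lists were chosen with earlier results of these data known. List members named outside the rule, such as Mael, Mov10l1, Ddx4, Tdrd12, Id1, Id3, Tcfcp2l1, Tpi1, Grb10 and Dnmt1, were chosen with their values known. Alternatives were other normalizations, DESeq2 1.42.0, filters on low counts, a replicate block, and leaving out each library. The count without 3 chromosome stretches was chosen after seeing the data. Some items are not reported here.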

Additional observations from a re-analysis of the deposited data

Results flagged for a closer look

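The effect of TF-AA differed from those of the other RYBP perturbations, each against its own control, in an interaction test for every gene. It differed from the effect of Rybp-/- for 3525 genes, of which 1582 had the higher effect in TF-AA and 1943 the lower. It differed from the effect of RYBP phase disruption for 3421 genes, 1734 higher and 1687 lower. It differed from the effect of the knockdown for 5994 genes, 3362 higher and 2632 lower. The tables were made in separate experiments, so the perturbation and the experiment cannot be told apart.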

How the results depend on the processing

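The number of genes called, 4412, lay between 2724 and 4767 when 1 library was left out, with 1280 to 2254 rises and 1444 to 2513 falls. With a log2 fold change above 1 in addition it was 1176, and at an adjusted p under 0.01 it was 2917. Other settings gave 3171 calls (DESeq2), 4488 (library size alone), 4619 (no filter) and 3224 (mean of at least 5 CPM). Upper quartile normalization gave 4564 calls with 2847 rises. The replicate numbers pair no samples by the labels, the same-numbered libraries had deviations correlated by 0.0736, and the replicate block gave 5525 calls. With the block Rybp (adjusted p = 0.0183) and Sox2 (adjusted p = 0.0408) were called, and the calls were 7 for DNA methylation genes, 6 for COMPASS, 8 for replication, 10 for complex I and 30 for ribosomal genes. Upper quartile normalization gave 6 calls for COMPASS, 2 for PRC2, 8 for p53 targets, 10 for complex I and 32 for ribosomal genes, and DESeq2 gave 5 for homeobox and Pax factors, 3 for complex I and 9 for ribosomal genes. Among the interaction tests, a difference above 1 in addition left 811 genes against Rybp-/-, 1076 against phase disruption and 1634 against the knockdown. The block gave 4172, 4198 and 6520.

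Of the named genes and settings, 1648 combinations kept direction and side of the threshold, 101 lost the call and 5 gained it, and none turned direction. Of 158 calls, 98 stayed with a mean of at least 5 CPM, where fewer genes were tested. The share of start sites within 1 kb of a peak was 76.4% (H3K27ac), 90.7% (H3K4me3), 59% (RING1B) and 67.8% (WDR5) over all genes. With q under 0.0001 RING1B was at 41.3% of all genes, 52.1% of rises and 45.4% of falls, H3K27ac at 76.5%, 53.9% and 89.3%, and WDR5 at 64.3%, 47.2% and 74.6%. Why these values moved was not tested. Genes of few reads, such as the Hox genes, are limited by depth.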
